A study of Arabidopsis thaliana with 6 samples.

Results

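The serine carboxypeptidase-like genes (SCPL) and the beta-glucosidase genes (BGLU) are 2 large enzyme families of Arabidopsis thaliana, and their transcript levels were followed here in vegetative apices. Members were taken by gene symbol: every probe set that the array annotation pairs with a single gene whose symbol starts with SCPL or BGLU and a number. This gave 29 SCPL and 20 BGLU genes, 49 of the 13356 genes that could be named on the array. Each of the 49 has 1 probe set, so no choice between probe sets was needed. The gene table lists 49 genes with an SCPL symbol and 40 with a BGLU symbol, and the remaining 20 and 20 genes enter no count below. Of the SCPL genes numbered 1 to 19, 2 of 18 were measured, against 27 of 31 with higher numbers. Of the BGLU genes numbered 1 to 14, 0 of 14 were measured, against 20 of 26 with higher numbers. The BGLU counts and medians below thus cover only higher-numbered genes.

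RNA came from vegetative apices of short-day plants aged 7 days. The groups were plants overexpressing miR164b and plants overexpressing miR172a, both in the Col-0 background, and Columbia plants carrying the empty pML_Bart plasmid (vector), with 2 arrays each. The labels give no promoter for the overexpression constructs. They also do not tell whether the paired arrays of a group hold RNA of different plants, so the error behind each p-value here may be only technical. miR164 is known to act on NAC-type regulators of organ boundaries and miR172 on AP2-type floral repressors, and the comparisons ask which transcripts differ when either is overproduced.

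SCPL proteins share the fold and the Ser-His-Asp active site of serine carboxypeptidases, which trim amino acids from the carboxyl end of peptides. Some members instead work as acyltransferases that use glucose esters as donors, the best known making sinapate esters. BGLU proteins split glucose from small glucosides. In this way they release stored defence compounds, lignin precursors or hormones, and the myrosinases that act on glucosinolates belong to the same family. The levels of the microRNAs themselves were not analysed here.

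Values are linear scaled intensities as deposited. Intensities of different probe sets depend on their probes, so a level is compared only with the same gene in other groups. Differences were fitted on the log2(intensity + 16) scale across all 22746 probe sets with limma, and a gene is said to rise or fall where its Benjamini-Hochberg adjusted p, taken over all those probe sets, was under 0.05. The offset of 16 damps changes of dim probe sets. Of the SCPL genes 8 had a mean below 16 over all arrays, and of the BGLU genes 9. That is 27.6% and 45.0%, against 26.9% of all named genes and 22.8% of all probe sets tested. Among the 10 members below 16 on every array were the neighbours scpl22 and scpl23 and the low-numbered scpl16 and scpl18.

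Over all probe sets, the correlation of log2 values between arrays was 0.991 to 0.994 within groups and 0.981 to 0.9872 between groups. The 25S rRNA control probe set read 443 and 529 on the miR164b arrays, 355 and 3462 on the miR172a arrays, and 4070 and 4093 on the vector arrays, so the miR172a pair was split. A control probe set at the 5′ end of actin mRNA, where degraded RNA loses signal first, read 1669 and 1720 in miR164b, 1637 and 1281 in miR172a, and 1099 and 1113 in vector. One at its 3′ end read 3268 and 3638 in miR164b, 3684 and 3901 in miR172a, and 3296 and 3270 in vector. The 5′ signal of actin was thus lowest in vector. A GAPDH 5′ control read 1077 and 1064 in miR164b, 910 and 767 in miR172a, and 747 and 827 in vector. There miR172a and vector overlapped. Another read 2492.2 and 2699.8 in miR164b, 2382 and 2217.9 in miR172a, and 2186.5 and 2212.8 in vector, where it was lowest. The part of these control signals in the results below was not tested. Of 8 shoot meristem markers only CLV3, the stem cell peptide gene, could be named, and it read 64.6 and 82.4 in miR164b, 50.9 and 44.9 in miR172a, and 59.7 and 42.5 in vector. The 1 measured leaf marker of 5, the chlorophyll-binding protein gene LHCB4.3, read 102.0 and 85.3 in miR164b, 176.9 and 211.1 in miR172a, and 117.3 and 115.7 in vector. It was thus highest in miR172a, as BGLU40 was, and it passed the threshold in the same comparisons as BGLU40. SCPL49 passed in those comparisons too, in the opposite direction. LHCB4.3 rose in miR172a against vector (log2 0.66 ± 0.12, adjusted p = 0.041, limma). It was lower in miR164b than in miR172a (log2 -0.94 ± 0.12, adjusted p = 0.015, limma). The part of LHCB4.3 in the results was not tested. The 1 measured root marker of 7, the root hair expansin EXPA7, read 4.0 to 5.2 on the miR164b and miR172a arrays and 33.1 and 4.8 in vector. No listed flower, seed, myrosin cell or guard cell marker was named on the array. In RNA from whole apices, fewer cells of a type and less RNA per cell cannot be told apart.

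The members that rose in miR164b were scpl31 (AT1G11080) and scpl48 (AT3G45010), both of the carboxypeptidase-like family. scpl31 read 69.6 and 67.2 in miR164b, against 25.2 and 24.5 in vector, a ratio of the means of 2.75. The miR164b arrays lay far above the vector arrays and each pair differed by less than 3 units of intensity. The fitted log2 difference was 1.05 ± 0.08 (SE, adjusted p = 0.0074, n = 2 each, limma). scpl48 read 122.4 and 137.1 in miR164b, against 58.1 and 63.3 in vector, a ratio of 2.14 (log2 0.93 ± 0.09, adjusted p = 0.016, limma). Here too the groups did not overlap.

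These were 2 of 29 SCPL genes, all rises, while 0 of 20 BGLU genes passed in either direction. Over both families 4.08% were called, against 1.79% of all probe sets tested, 0.95% being higher and 0.84% lower. At an unadjusted p under 0.05, 7 SCPL genes were higher and 1 lower, and 0 BGLU genes were higher and 2 lower, against 7.04% of probe sets higher and 11.4% lower. The SCPL median log2 difference was 0.11 and the BGLU median -0.05, beside -0.05 over all named genes. In 12 SCPL genes both miR164b arrays lay above both vector arrays and in 4 below, against 19.1% and 32.5% of all probe sets tested. For BGLU these counts were 3 and 5.

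Next in size among the carboxypeptidase-like genes was SCPL34, at 241.6 and 214.9 in miR164b, against 115.0 and 152.8 in vector (log2 0.71 ± 0.14, adjusted p = 0.086, limma), which did not pass. scpl25 and scpl21 had the lowest log2 differences of the SCPL genes, -0.26 each, with adjusted p of 0.21 and 0.55 (limma). Among beta-glucosidases, BGLU15, an enzyme of flavonol glycoside breakdown, read 169.7 and 150.0 in miR164b, against 129.7 and 113.6 in vector (log2 0.35 ± 0.15, adjusted p = 0.29, limma). BGLU16 had a log2 difference of 0.18 ± 0.08, BGLU28 of -0.29 ± 0.09 and BGLU29 of -0.27 ± 0.24, none past the threshold. BGLU28, which takes part in glucosinolate turnover under sulphur shortage, was near the offset, at 12.8 and 13.5 in miR164b, against 17.5 and 21.8 in vector.

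The scpl31 call was lost without either miR164b array or either vector array (adjusted p up to 0.11), and its log2 difference was 0.58 with an offset of 64. The scpl48 call was lost without any one of the 6 arrays (adjusted p from 0.054 to 0.15) and with an offset of 1 (adjusted p = 0.055), all in limma.

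**Figure D1:**
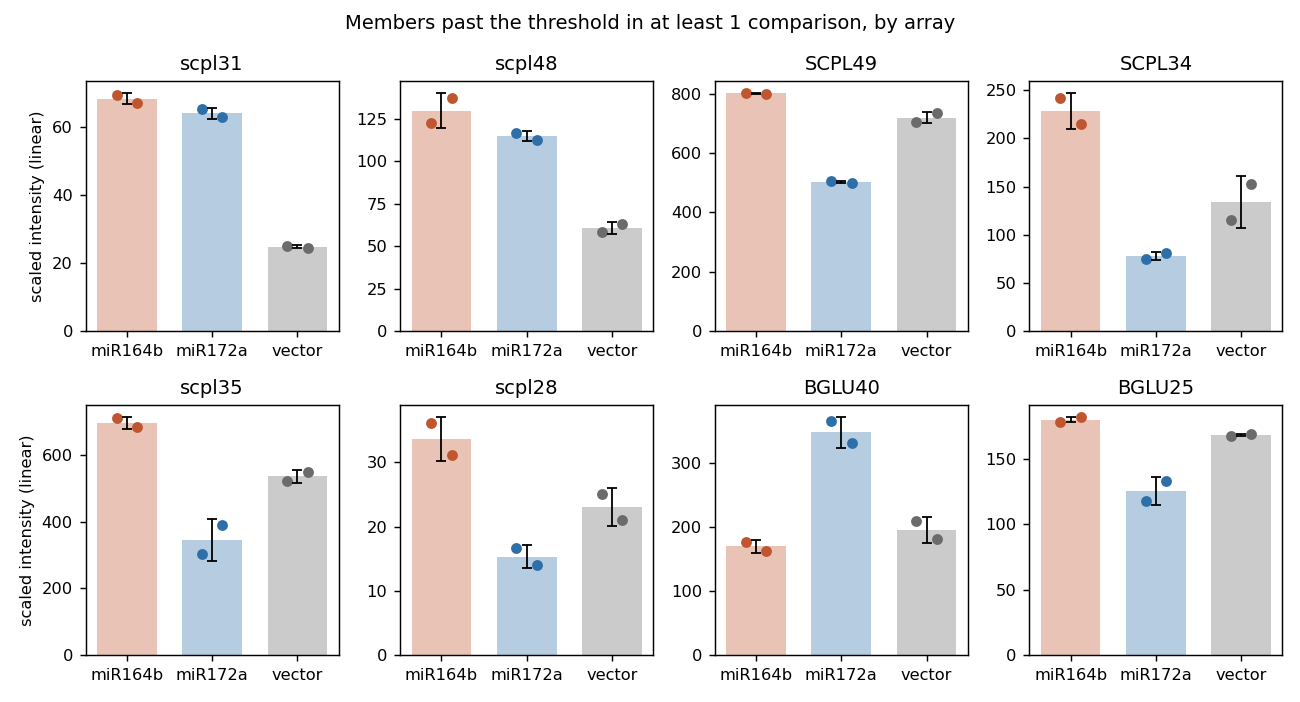
Scaled linear intensity of the 8 members that passed in at least 1 comparison, 1 panel a gene. Points are single arrays, bars the mean and error lines the SD of the 2 arrays of miR164b, miR172a and vector; each y axis starts at 0. scpl31 and scpl48 stand above vector in both overexpressing groups, BGLU40 is highest in miR172a, and SCPL34, scpl35, scpl28, SCPL49 and BGLU25 are higher in miR164b than in miR172a.

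In miR172a the same carboxypeptidase-like genes passed as higher, a beta-glucosidase joined them, and the carboxypeptidase Y gene was lower. This comparison uses the same vector arrays as the one above, so the rises are given side by side and not as separate evidence. scpl31 read 65.3 and 62.9 in miR172a, against 25.2 and 24.5 in vector, a ratio of 2.58 (log2 0.97 ± 0.08, adjusted p = 0.0054, n = 2 each, limma). scpl48 read 116.7 and 112.7 in miR172a, against 58.1 and 63.3 in vector, a ratio of 1.89 (log2 0.77 ± 0.09, adjusted p = 0.015, limma). Neither gene's miR172a arrays overlapped its vector arrays.

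BGLU40 (AT1G26560) was the beta-glucosidase that rose. It read 365.2 and 330.6 in miR172a, against 209.2 and 181.2 in vector, a ratio of 1.78 (log2 0.79 ± 0.11, adjusted p = 0.020, limma). In miR164b it read 176.8 and 162.9, with no call against vector (log2 -0.18 ± 0.11, adjusted p = 0.43, limma). The miR172a arrays were thus the high ones of all 6.

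SCPL49 (AT3G10410), which the gene table also lists as carboxypeptidase Y, a vacuolar peptidase in yeast, fell. It read 506.0 and 499.7 in miR172a, against 705.4 and 733.3 in vector, a ratio of 0.699 (log2 -0.50 ± 0.08, adjusted p = 0.027, limma). The pair of miR172a arrays differed by far less than the gap to vector.

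In all, 2 SCPL genes rose and 1 fell, and 1 of 20 BGLU genes rose and 0 fell. This balance depended on the setting. Over both families 4 genes were called higher and 5 lower with an offset of 64, where 9.85% of probe sets were called. With limma-trend and robust moderation it was 5 and 6 (9.98%), and without the 40% dimmest probe sets 5 and 6 of 22 members (17.7%). Rises stayed ahead in the other settings with all arrays. They were 3 and 2 with quantile normalization (6.11%) and with median centring (5.71%). With the replicate letter as a block they were 3 and 0 (3.5%), and with an offset of 1 they were 2 and 0 (1.78%). In the fit first described, 8.16% of both families were called, against 5.87% of all probe sets tested (3.23% higher and 2.64% lower). At an unadjusted p under 0.05, 6 SCPL genes were higher and 6 lower, and 1 BGLU gene was higher and 4 lower, against 11.0% and 10.3% of probe sets and 21.3% in either direction. The SCPL median log2 difference was 0.07, the BGLU median -0.10 and the median over all named genes 0.00. The miR172a arrays lay above the vector arrays in 10 SCPL and 2 BGLU genes and below them in 6 and 7, against 24.9% and 23.8% of all probe sets tested.

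Several members came close to the threshold in miR172a without passing. Nearest was scpl18, which read 2.0 and 1.3 in miR172a, against 10.2 and 7.0 in vector, all below the offset (log2 -0.48 ± 0.10, adjusted p = 0.054, limma). SCPL34 read 75.4 and 81.4 in miR172a, against 115.0 and 152.8 in vector (log2 -0.66 ± 0.14, adjusted p = 0.061, limma). scpl35 read 301.3 and 389.6 in miR172a, against 521.7 and 549.5 in vector (log2 -0.62 ± 0.13, adjusted p = 0.058, limma). Their miR172a arrays lay below the vector arrays without overlap. BGLU25 had a log2 difference of -0.39 ± 0.09 (adjusted p = 0.071, limma), and SCPL45 of 0.35 ± 0.09 (adjusted p = 0.091, limma).

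BGLU33, a vacuolar enzyme that frees abscisic acid from its glucose ester, read 46.7 and 52.9 in miR172a, against 68.5 and 64.3 in vector (log2 -0.33 ± 0.09, adjusted p = 0.11, limma). BGLU44 read 1309.7 and 1323.0 in miR172a, against 1647.4 and 1577.9 in vector (log2 -0.29 ± 0.08, adjusted p = 0.10, limma). Neither passed. For both genes the miR172a arrays lay below the vector arrays, as they did in 23.8% of all probe sets tested. Among the BGLU genes that did not pass, BGLU29 had the lowest log2 difference, -0.50 ± 0.24, and BGLU43 the highest, 0.26 ± 0.18. Most of their arrays were below 16. The SCPL genes with the largest positive differences that did not pass were scpl44 at 0.41 ± 0.12, scpl40 at 0.39 ± 0.19 and scpl50 at 0.39 ± 0.10.

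The scpl31 call was lost without miR172a replicate 2 (adjusted p = 0.052), and its log2 difference was 0.53 with an offset of 64. That of scpl48 was lost without either miR172a array or either vector array (adjusted p up to 0.090), and those of BGLU40 and SCPL49 without any one of the 6 arrays (adjusted p from 0.063 to 0.10 and from 0.082 to 0.11) and with an offset of 1 (0.059 and 0.064), all in limma.

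**Figure D2:**
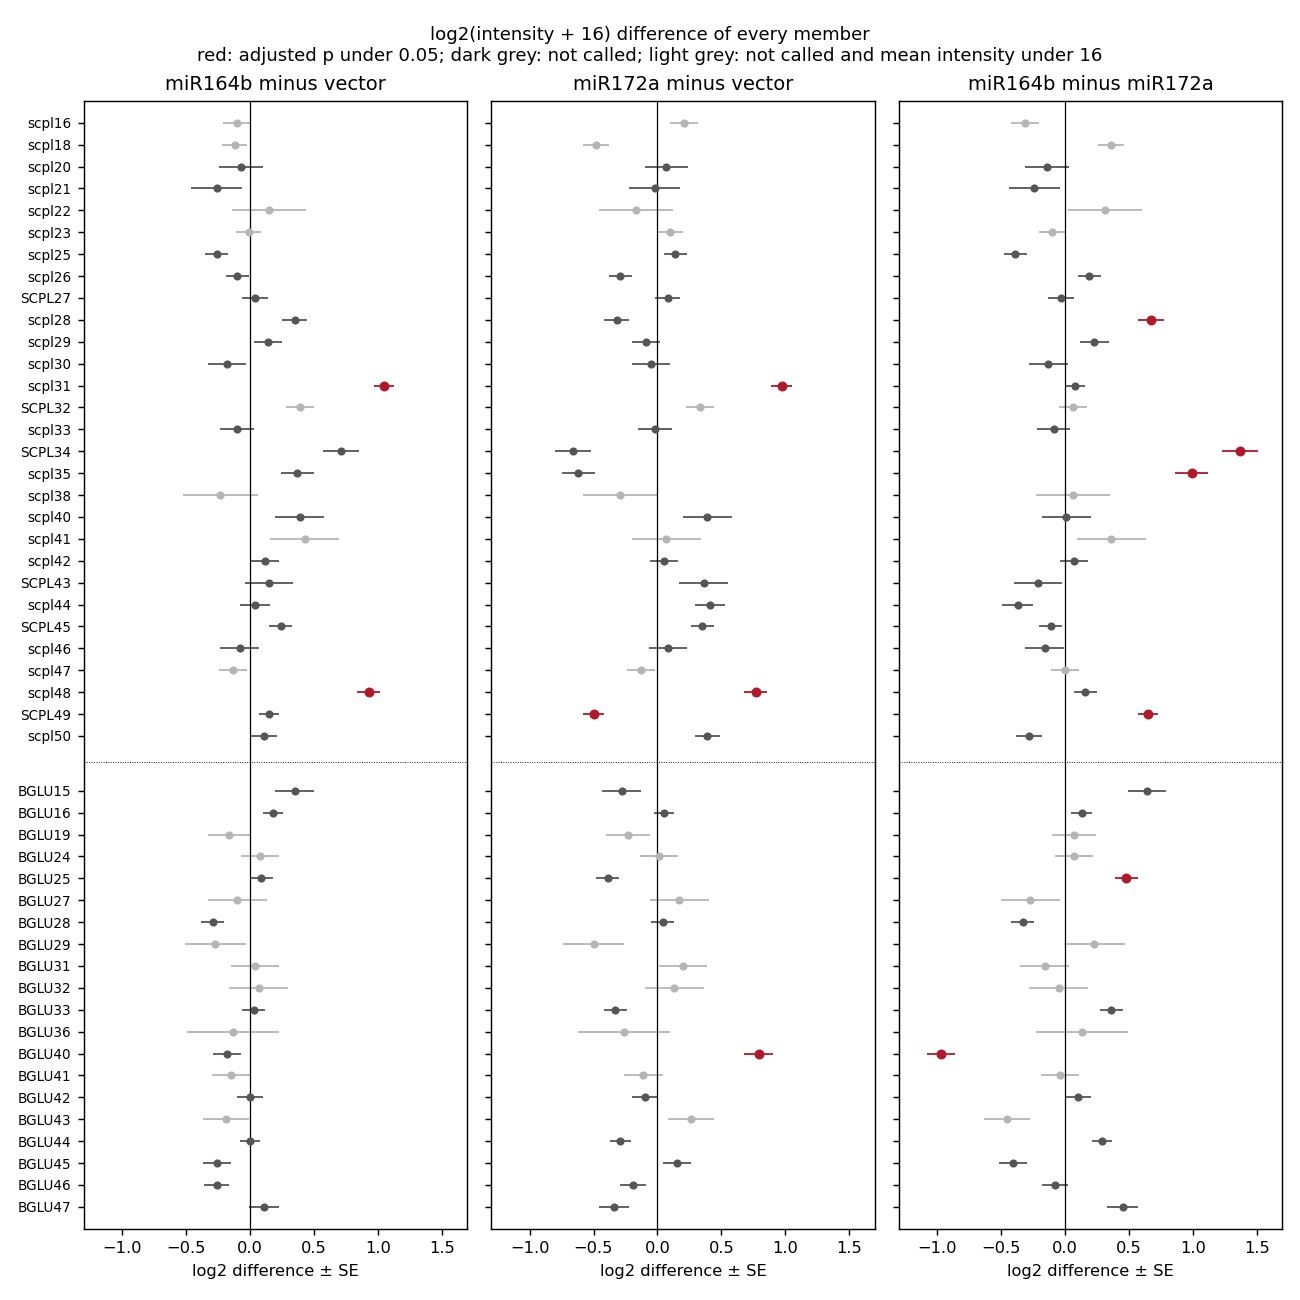
log2(intensity + 16) difference and its SE for each of the 29 SCPL genes (top) and 20 BGLU genes (bottom) in miR164b minus vector, miR172a minus vector and miR164b minus miR172a. Red points passed at an adjusted p under 0.05, dark grey points did not, and light grey points did not and had a mean intensity under 16. There are 2, 4 and 6 red points in the 3 panels.

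The direct comparison of miR164b with miR172a uses the vector arrays only for the shared estimate of spread. It held the largest number of called members and also of called probe sets. Of all probe sets tested 7.14% were called, against 5.87% for miR172a and 1.79% for miR164b against vector. SCPL34, scpl35, SCPL49, scpl28 and BGLU25 were higher in miR164b and BGLU40 was lower. SCPL34 (AT5G23210) read 241.6 and 214.9 in miR164b, against 75.4 and 81.4 in miR172a, a ratio of 2.91 (log2 1.37 ± 0.14, adjusted p = 0.0083, n = 2 each, limma). The vector arrays, 115.0 and 152.8, lay between those of the overexpressing plants. Its difference was the largest of the 49 in any of the 3 comparisons.

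scpl35 (AT5G08260) followed at 709.0 and 682.7 in miR164b, against 301.3 and 389.6 in miR172a, a ratio of 2.01 (log2 0.99 ± 0.13, adjusted p = 0.016, limma). The miR172a arrays of scpl35 had an SD of 62.4 around a mean of 345.5, and lay below the miR164b arrays. SCPL49, the carboxypeptidase Y gene, read 801.7 and 799.3 in miR164b, against 506.0 and 499.7 in miR172a (log2 0.65 ± 0.08, adjusted p = 0.011, limma). Its miR164b level did not pass against vector (log2 0.15 ± 0.08, adjusted p = 0.37, limma).

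scpl28 (AT2G35770) read 36.1 and 31.2 in miR164b, against 16.6 and 14.0 in miR172a, a ratio of 2.20 (log2 0.67 ± 0.10, adjusted p = 0.023, limma). The miR172a values of scpl28 lay about the offset, and vector, at 25.1 and 21.0, lay between the other groups. BGLU25 (AT3G03640) read 178.5 and 181.6 in miR164b, against 117.6 and 132.9 in miR172a, a ratio of 1.44 (log2 0.48 ± 0.09, adjusted p = 0.038, limma). BGLU40 was the call in the other direction, at 176.8 and 162.9 in miR164b, against 365.2 and 330.6 in miR172a, a ratio of 0.488 (log2 -0.97 ± 0.11, adjusted p = 0.0099, limma). No called member had overlapping arrays in this comparison. Of all probe sets tested, miR164b lay above miR172a without overlap in 19.4% and below it in 34.0%.

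For the genes that were higher than vector in both overexpressing groups, the direct comparison found no difference past the threshold. For scpl31 the log2 difference between miR164b and miR172a was 0.08, with a 95% interval from -0.12 to 0.27 (adjusted p = 0.63, limma). For scpl48 it was 0.16, with a 95% interval from -0.07 to 0.39 (adjusted p = 0.39, limma). Differences inside these intervals cannot be told from 0 with 2 arrays a group.

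Counted by family, 4 of 29 SCPL genes were higher in miR164b and 0 lower, and 1 of 20 BGLU genes was higher and 1 lower. That is 12.2% of the 49, against 7.14% of all probe sets tested (3.11% higher and 4.02% lower). At an unadjusted p under 0.05 the counts of higher and lower genes were 5 and 4 for SCPL and 5 and 3 for BGLU, against 9.14% and 14.6% of probe sets. The miR164b arrays lay above the miR172a arrays in 9 SCPL and 7 BGLU genes and below them in 7 and 4, against 19.4% and 34.0% of all probe sets tested. The median log2 difference was 0.01 for SCPL, 0.07 for BGLU and -0.06 over all named genes.

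Among the members that did not pass, BGLU15 had the largest log2 difference, at 169.7 and 150.0 in miR164b, against 112.5 and 83.1 in miR172a (log2 0.64 ± 0.15, adjusted p = 0.067, limma). scpl25 read 1400.3 and 1472.1 in miR164b, against 1966.4 and 1820.6 in miR172a (log2 -0.39 ± 0.09, adjusted p = 0.055, limma). scpl44 had a log2 difference of -0.37 ± 0.12 and BGLU43 of -0.45 ± 0.18, neither past the threshold. Of the beta-glucosidases that act on lignin precursor glucosides, BGLU45 read 17.6 and 20.0 in miR164b, against 28.2 and 32.2 in miR172a (log2 -0.41 ± 0.11, adjusted p = 0.087, limma). BGLU46, its neighbour, had a log2 difference of -0.08 ± 0.10.

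In limma, the calls of SCPL34, SCPL49, scpl28 and BGLU40 were lost without any one of the miR164b and miR172a arrays (highest adjusted p = 0.082, 0.10, 0.14 and 0.097), that of scpl35 without either miR164b array or miR172a replicate 1 and with an offset of 1 (highest adjusted p = 0.12), and that of BGLU25 without any one of the 6 arrays and with an offset of 1 (highest adjusted p = 0.20). The log2 difference of scpl28 was 1.09 with an offset of 1 and 0.30 with an offset of 64.

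**Figure D3:**
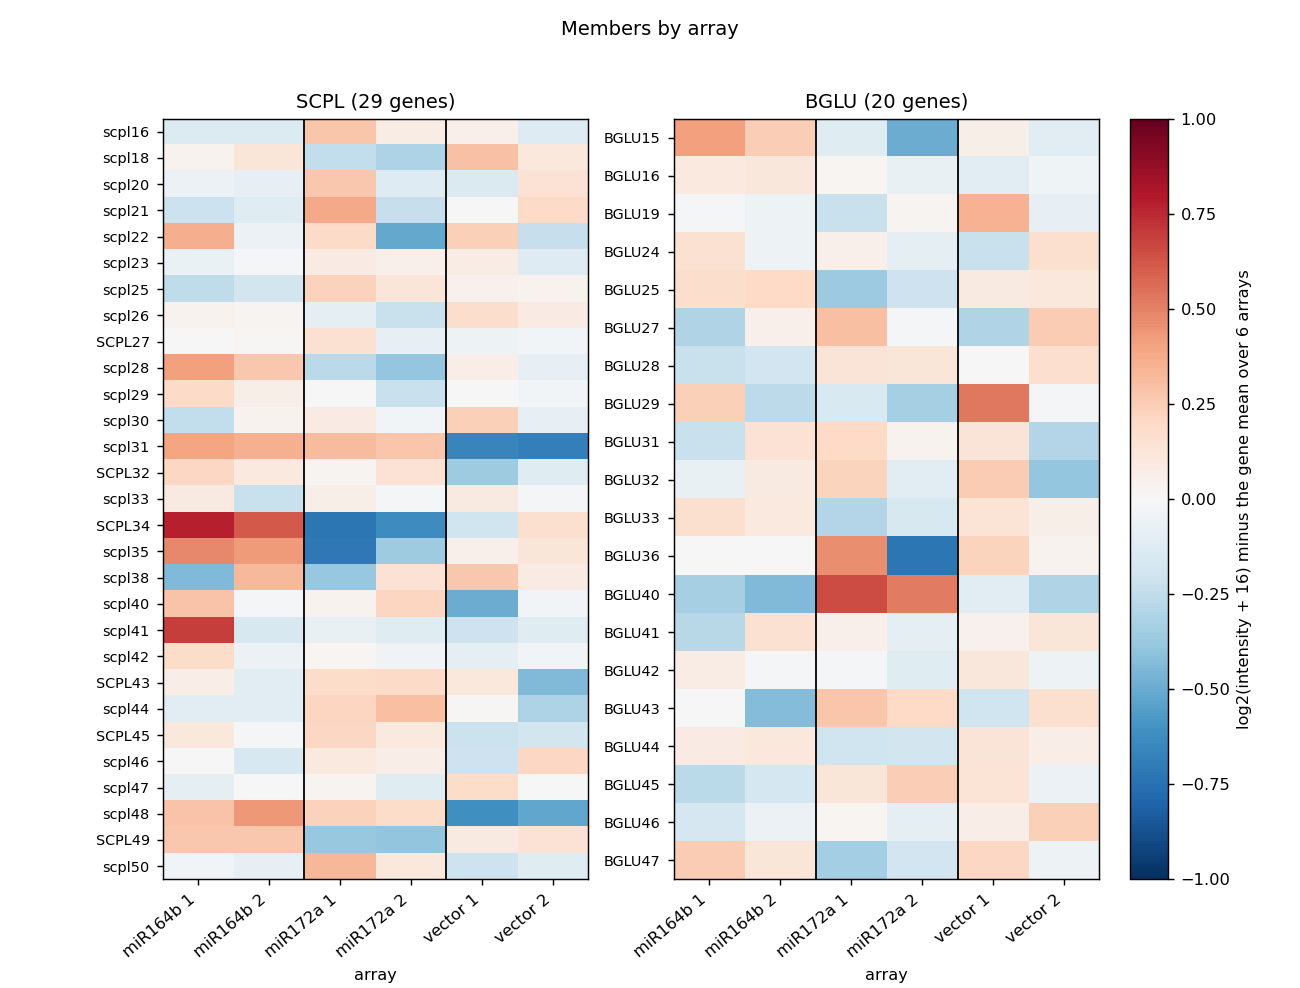
Each member on each array as log2(intensity + 16) minus that gene's mean over the 6 arrays, SCPL genes on the left and BGLU genes on the right. Columns run from miR164b through miR172a to vector, with black lines between groups; red is above the gene's mean and blue below. scpl31 and scpl48 are blue in the vector columns alone, SCPL34, scpl35 and SCPL49 are red in miR164b and blue in miR172a, and BGLU40 is red in miR172a.

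Some other members with a strong signal varied little between groups. scpl42 read 580.5 and 488.2 in miR164b, 514.6 and 496.7 in miR172a, and 476.1 and 498.4 in vector. scpl29 read 595.3 and 543.6 in miR164b, 523.3 and 444.0 in miR172a, and 518.2 and 510.2 in vector. BGLU42, which takes part in the release of coumarins from iron-starved roots, read 273.4 and 256.2 in miR164b, 255.1 and 236.6 in miR172a, and 281.4 and 249.2 in vector. None of the 3 passed in any comparison, and against vector only the miR164b arrays of scpl29 stood clear, above it. For BGLU42 the 95% intervals ran from -0.25 to 0.24 for miR164b against vector and from -0.35 to 0.14 for miR172a against vector on the log2 scale.

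Spread between the arrays of a group was widest among dim members. scpl41 read 17.2 and 2.4 in miR164b, 3.6 and 2.9 in miR172a, and 1.8 and 2.9 in vector, so that 1 miR164b array stands far above the other 5. BGLU36 read 11.8 and 11.8 in miR164b, 22.2 and 0.8 in miR172a, and 16.4 and 12.4 in vector. These genes had standard errors of 0.27 and 0.36, against 0.08 for scpl31 and SCPL49.

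The gene order of the TAIR10.1 gene table showed which members lie side by side. Of 9 pairs with at most 2 genes between them, 8 were direct neighbours. scpl28, called between the lines, lies next to scpl26, which read 479.3 and 478.4 in miR164b, against 436.7 and 399.4 in miR172a (log2 0.19 ± 0.09, adjusted p = 0.27, limma). BGLU15, BGLU28 and BGLU29 form a row of 3, with log2 differences between miR164b and miR172a of 0.64, -0.33 and 0.23. BGLU43 and BGLU44, another pair, had -0.45 and 0.29. No neighbouring pair held more than 1 called member, and the difference between neighbours was not tested.

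Of the genes around these families, few could be named. Proteins of the families that carry other symbols were listed as 11 genes, and 2 were measured, with 0 called in any comparison. PYK10, the abundant beta-glucosidase of ER bodies, read 4134.1 and 4456.7 in miR164b, 3380.8 and 3344.2 in miR172a, and 4008.1 and 4082.4 in vector. Its log2 difference between miR164b and miR172a was 0.35 ± 0.08 (adjusted p = 0.066, limma). The other, the tapetum gene ATA27, was below 16 on every array.

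Of 14 listed myrosinase partners and ER body genes, NAI1 and NAI2 were measured and 0 passed. NAI2, which is needed to form ER bodies, read 1186.8 and 1172.1 in miR164b, 934.4 and 825.2 in miR172a, and 1034.4 and 1057.4 in vector. Its log2 difference between miR164b and miR172a was 0.42 ± 0.09 (adjusted p = 0.057, limma). NAI1, the transcription factor that controls ER body genes, had 0.68 ± 0.22 in the same comparison (adjusted p = 0.14, limma).

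The enzymes that make sinapate esters and monolignol glucosides supply or share substrates with members of both families, and 7 of 9 were measured. UGT84A1, which joins glucose to hydroxycinnamic acids, read 7.8 and 4.5 in miR164b, 54.0 and 56.9 in miR172a, and 23.4 and 33.8 in vector. It fell in miR164b against vector (log2 -1.0 ± 0.14, adjusted p = 0.039, limma). It was the 1 called gene of the 7 there, where 1.79% of all probe sets tested were called. UGT84A1 was lower in miR164b than in miR172a (log2 -1.69 ± 0.14, adjusted p = 0.0049, limma). UGT84A3, of the same enzyme group, was also lower in miR164b than in miR172a, at 23.2 and 18.8 against 52.5 and 48.3 (log2 -0.85 ± 0.10, adjusted p = 0.011, limma). UGT72E1, a monolignol glucosyltransferase, was higher, at 78.7 and 70.4 in miR164b, against 32.3 and 34.3 in miR172a (log2 0.88 ± 0.10, adjusted p = 0.0096, limma). These were 3 of the 7 genes, in a comparison where 7.14% of all probe sets tested were called. In limma the UGT84A1 call against vector was lost on leaving out each of the 6 arrays in turn (adjusted p up to 0.25), with an offset of 1 and with quantile normalization. The 3 calls between the lines were each lost without either miR164b array, and those of UGT84A3 and UGT72E1 also without either miR172a array (highest adjusted p = 0.059, 0.094 and 0.086 for UGT84A1, UGT84A3 and UGT72E1).

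Against vector, 0 of the 7 passed in miR172a, where 5.87% of all probe sets tested did. ALDH2C4, the enzyme that forms sinapate and ferulate, read 591.2 and 560.1 in miR164b, 532.1 and 534.6 in miR172a, and 508.8 and 465.9 in vector, and did not pass. UGT84A4, UGT72E2 and UGT72E3 did not pass either, and UGT72E3 was below 16 on every array. Of 4 genes listed for making or splitting the glucose ester of abscisic acid, UGT71B6 and UGT71C5 were measured beside BGLU33, with 0 called.

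**Figure D4:**
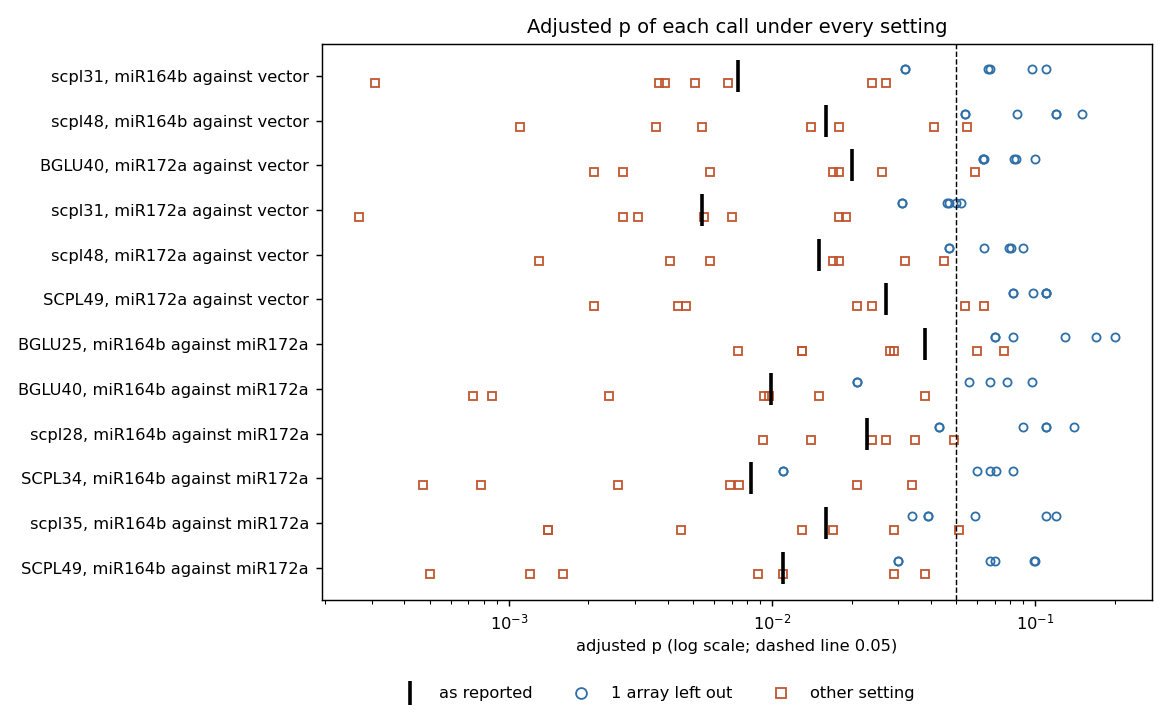
Adjusted p of each of the 12 calls made on 8 members, on a log axis. Black bars give the value as reported, blue circles the fits without 1 array and orange squares the other settings; the dashed line is 0.05. Every row has at least 1 circle to the right of the line, and 7 of the 12 rows have no square there.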

How the data were processed

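The deposited values are linear intensities, 1 for each of 22810 probe sets and 6 arrays. How the authors summarised and scaled them is not given in the sources used here. Without its lowest and highest 2% of probe sets, each array averaged 200, and medians lay between 85.3 and 92.2. With so few arrays, their number limits the precision. The 64 control probe sets were left out. Names came from the array annotation (13513 probe sets with 1 gene, 503 with several, 8730 not listed), and all 49 members matched the TAIR10.1 gene table by gene ID. Intensities were transformed as log2(intensity + 16) and fitted with limma 3.58.1 (lmFit, eBayes) in R 4.3.3, with 1 mean per group over all 6 arrays, 3 residual and 2.69 prior degrees of freedom, two-sided, adjusted over 22746 probe sets. Mean ± SD used n = 2. The method was run on simulated arrays with independent errors and log2 changes of 1 or 2. It was not run on smaller changes, which most calls on members had. Families were described by counts and medians, without a test. The members and lists were chosen with earlier results of these data known. All members may be named. By rule these were scpl31, scpl48, called members, the 5 of each family with the highest mean and, per family and comparison, the 2 with the largest difference in each direction, some given by log2 difference alone. scpl16, scpl18, scpl22, scpl23, scpl26, scpl40, scpl41, scpl42, scpl50, BGLU33, BGLU36, BGLU45 and BGLU46 were added after their values were seen. Figures used Python 3.11.15 and matplotlib 3.10.9.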

Additional observations from a re-analysis of the deposited data

How the results depend on the processing

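Each of the 12 calls on members kept its direction in every fit run. All 12 were lost without at least 1 array, and 7 of them kept their call in every other setting tried. The number of members called ranged from 0 to 1 without 1 array for miR164b against vector, from 0 to 2 for miR172a against vector and from 0 to 5 for miR164b against miR172a. Over all probe sets the share called without 1 array was 0.0396% to 0.633%, 0.488% to 1.58% and 0.448% to 4.48%, below the shares with all 6 arrays in each comparison. With an offset of 1 it was 1 and 2 against vector for miR164b and miR172a, at 0.453% and 1.78% of probe sets. For miR172a against vector it was 9 with an offset of 64 (9.85% of probe sets), 11 of 22 without the 40% dimmest probe sets and 11 with limma-trend and robust moderation, where 17.7% and 9.98% of probe sets were called in the last 2 settings. For miR164b against miR172a it was 10 with quantile normalization, at 7.28% of probe sets. With the replicate letter as a block the counts were 2, 3 and 6, at 0.818%, 3.5% and 4.85% of probe sets, where SCPL49 in miR172a and BGLU25 between the lines lost their calls and BGLU15 between the lines gained one. Same-lettered arrays deviated together with correlations of -0.011, 0.105 and 0.079, so the letters were not taken to pair the samples.

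The SCPL median log2 difference for miR164b against vector was 0.05 with an offset of 64, 0.16 with median centring, 0.13 without the dimmest probe sets and 0.05 to 0.13 without 1 array. The BGLU median there was 0.02 without the dimmest probe sets and -0.10 to 0.02 without 1 array. For miR172a against vector the SCPL median was 0.03 with an offset of 64 and -0.03 to 0.11 without 1 array, and the BGLU median -0.24 without the dimmest probe sets and -0.14 to 0.01 without 1 array. For miR164b against miR172a the SCPL median was 0.11, 0.08 and 0.07 with quantile normalization, median centring and the dim filter, and -0.04 to 0.07 without 1 array. The BGLU median there was 0.12 with an offset of 1, then 0.13, 0.14 and 0.21 in those settings, and -0.06 to 0.13 without 1 array. BGLU29 in miR164b against vector had a log2 difference between -0.55 and 0.00 without 1 array, the last without vector replicate 1. Of the 135 member differences that did not pass, 15 passed in at least 1 other setting. They were SCPL34 in miR164b against vector, then SCPL34, scpl35, scpl18, scpl26, SCPL45, scpl50, BGLU25, BGLU33 and BGLU44 in miR172a against vector, and BGLU15, BGLU33, BGLU44, scpl18 and scpl25 between the lines. The 4 calls on genes of the sinapate and monolignol list, run through these settings after seeing the data, kept their direction in each, and all were lost without at least 1 array. With the block, the UGT84A1 call against vector was lost too. The cause of these changes was not tested. Averaging the probe sets of a gene changed nothing here, since every member has 1 probe set.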

Other observations

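Another 3 probe sets pair with several genes of which at least 1 belongs to a family, and they were kept out of every count above. The probe set shared by BGLU21 and BGLU22, neighbours of the ER body type, read 9.8 and 7.8 in miR164b, 14.5 and 8.2 in miR172a, and 22.5 and 18.3 in vector. Both overexpressing groups lay below vector without overlap, as did 32.5% of all probe sets tested for miR164b and 23.8% for miR172a. The signal was dim, with 4 of the 6 arrays below the offset. Neither difference passed (log2 -0.55 ± 0.14, adjusted p = 0.13, for miR164b, and -0.42 ± 0.14, adjusted p = 0.16, for miR172a, limma). The probe set shared by scpl36 and scpl37 read 1.6 and 1.1 in miR164b, 0.8 and 2.0 in miR172a, and 7.4 and 2.3 in vector, all below the offset. The probe set shared by scpl39 and AT3G56540 lay between 0.8 and 3.3 on the 6 arrays.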
